A study of Mus musculus with 8 samples.

Results

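The mitochondrially encoded respiratory chain transcripts described here are 10 messenger RNAs that are read from the mitochondrial chromosome (MT). They were chosen by name from the deposited table, in which they are 10 of 21434 genes and 10 of the 13 protein-coding genes of MT. All 10 passed the filter on low counts and were among the 12820 genes tested. The libraries were made from pancreatic tissue of 4 Bach2KO and 4 Bach2WT mice, each group holding 2 females (mice 1 and 2) and 2 males (mice 3 and 4). All mice were untreated, received standard chow and were 18 weeks old. Bach2KO mice were homozygous for the allele of C57BL/6N-Bach2tm1b(EUCOMM)Wtsi/leg, a constitutive deletion in all cells of the body, and Bach2WT mice were wild types of the same strain. The question was which pancreatic transcripts differ between the genotypes at this age.

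Mitochondria keep a small circular chromosome whose messenger RNAs code only for core membrane subunits of the respiratory chain and of ATP synthase. The partner subunits come from nuclear genes and are imported. Both strands of the circle are transcribed as long precursors, which are cut at the transfer RNAs between the genes and receive poly(A) tails. Pancreatic acinar cells spend much ATP on making and secreting digestive enzymes. Copies of mitochondrial DNA have also been inserted into nuclear chromosomes during evolution, and some are annotated as pseudogenes.

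The libraries held 72299745 to 172029360 counts on genes. Of these, 82.8% to 85.5% fell on 33 digestive enzyme genes, and acinar markers were abundant (Cpa1, carboxypeptidase A1, at 52953 to 89871 CPM, counts scaled to the size of the library). The transcription factor gene Bach2 had 3 to 16 counts in the Bach2KO and 4 to 31 counts in the Bach2WT libraries, too few to check the labels, and the counts do not separate the deleted part of the gene. The library Bach2KO 3 (male) stood apart from the others in the transcripts described here, so the genotype comparisons of these transcripts and of the nuclear subunits are given with and without it. All CPM values were scaled with TMM factors, which correct for differences in RNA composition between libraries.

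By role, the set holds 5 subunits of complex I (mt-Nd1, mt-Nd2, mt-Nd4, mt-Nd5, mt-Nd6), 1 of complex III (mt-Cytb), 3 of complex IV (mt-Co1, mt-Co2, mt-Co3) and 1 of ATP synthase, complex V (mt-Atp6). On MT of GRCm39, the complex I genes are mt-Nd1 (ENSMUSG00000064341, 2751 to 3707), mt-Nd2 (ENSMUSG00000064345, 3914 to 4951), mt-Nd4 (ENSMUSG00000064363, 10167 to 11544), mt-Nd5 (ENSMUSG00000064367, 11742 to 13565) and mt-Nd6 (ENSMUSG00000064368, 13552 to 14070). mt-Cytb (ENSMUSG00000064370) spans 14145 to 15288. The complex IV genes are mt-Co1 (ENSMUSG00000064351, 5328 to 6872), mt-Co2 (ENSMUSG00000064354, 7013 to 7696) and mt-Co3 (ENSMUSG00000064358, 8607 to 9390), and mt-Atp6 (ENSMUSG00000064357) spans 7927 to 8607. mt-Nd6 lies on the minus strand of the table and the other 9 on the plus strand. The genes have no introns. The last 30 bases of the members' transcripts (GENCODE M21, GRCm38, 5′ to 3′) are shown because they carry the ends at which these genes meet their neighbours. Capitals mark the letters of the stop codon.
mt-Nd1: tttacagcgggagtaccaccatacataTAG
mt-Nd2: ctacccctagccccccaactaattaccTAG
mt-Nd4: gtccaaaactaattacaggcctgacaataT
mt-Nd5: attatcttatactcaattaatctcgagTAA
mt-Nd6: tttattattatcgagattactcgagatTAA
mt-Cytb: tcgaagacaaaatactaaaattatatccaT
mt-Co1: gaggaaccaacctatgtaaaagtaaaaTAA
mt-Co2: ttcgaaaactgatctgcttcaataattTAA
mt-Co3: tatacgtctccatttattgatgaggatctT
mt-Atp6: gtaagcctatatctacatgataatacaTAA

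In 7 of the 10 transcripts the length was a multiple of 3 and a full stop codon was present. The other 3 (mt-Nd4, mt-Co3 and mt-Cytb) ended in a lone T, which the poly(A) tail completes to TAA. mt-Atp6 overlapped mt-Co3 by 1 base, and mt-Nd5 and mt-Nd6 overlapped by 14 bases on opposite strands. Whether the counting used strand is not given in the sources used here. Reads from those 14 bases, or from the strand opposite to any member, thus cannot be assigned to a strand.

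Levels per length differed widely between members, although these transcripts come from shared precursors. In deposited FPKM (counts per kilobase of gene, on 1 scale for all libraries), mt-Nd1, a complex I subunit next to the quinone site, was the most abundant, at 342, 507, 394 and 317 in Bach2WT mice 1 to 4 (390 ± 84.2, SD, n = 4). It was followed by mt-Cytb (266 ± 28.4), mt-Co1 (245 ± 12.7), mt-Nd2 (167 ± 27.6), mt-Nd4 (137 ± 22.8), mt-Nd6 (75.8 ± 18.7) and mt-Nd5 (71.4 ± 7.72). These 7 ranked between the 32nd and the 178th of all genes by FPKM in the 8 libraries. mt-Co2 (16.5 ± 1.36), mt-Atp6 (4.32 ± 0.548) and mt-Co3 (3.26 ± 0.878) formed a separate low end.

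Neighbours in this order that overlapped between the Bach2WT libraries were mt-Cytb and mt-Co1, mt-Nd2 and mt-Nd4, mt-Nd6 and mt-Nd5, and mt-Atp6 and mt-Co3. The largest step lay between mt-Nd5 and mt-Co2, 4.33-fold by the ratio of geometric means, and the next between mt-Co2 and mt-Atp6, 3.82-fold. Neither step had overlapping values. mt-Nd1 was the first and mt-Co2, mt-Atp6 and mt-Co3 the last 3 in each of the 8 libraries, Bach2KO 3 included.

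mt-Nd6, the only member on the minus strand, was not low for its length in these counts. As the strand setting is not given, its counts may hold reads from the opposite strand, which was not tested. Its counts were 2.15% to 3.12% of those of the other 9 members together, and its FPKM was 0.916 to 1.28 times that of mt-Nd5, whose end it overlaps. mt-Nd6 was above mt-Nd5 in 4 of the 8 libraries.

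The 3 members with the lowest levels were those whose sequence is also found almost whole in annotated nuclear transcripts. The comparison was made on GENCODE M21 transcripts by asking which stretches of 150 bases, the stated read length, occur in both without a mismatch. For mt-Co2, 99.4% of such windows were shared, for mt-Atp6 99.4% and for mt-Co3 99.8%, against 23.6% for mt-Co1, 59.2% for mt-Nd4 and 0% for mt-Nd1, mt-Nd2, mt-Nd5, mt-Nd6 and mt-Cytb. mt-Nd4, with a level near that of mt-Nd2, shared its windows with Gm28439, a pseudogene that was named after its values were seen.

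**Figure D1:**
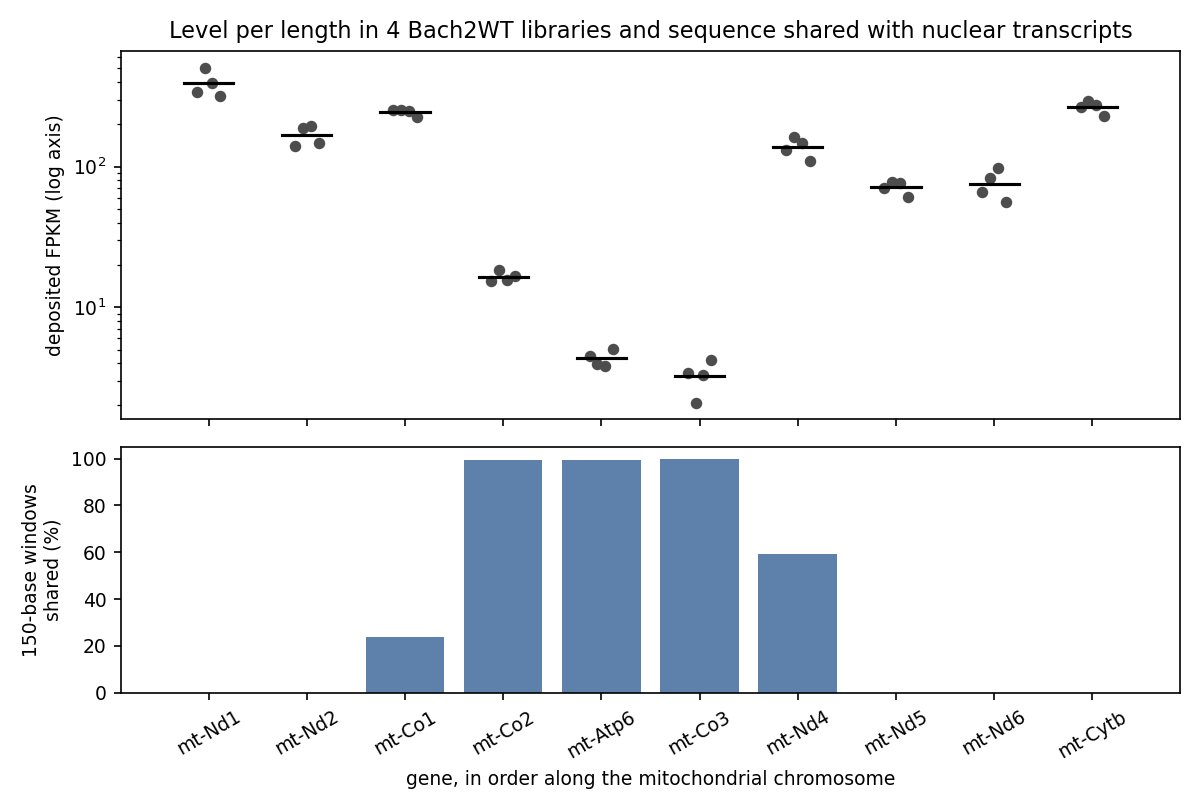
Upper panel: deposited FPKM (log axis) of each member in the 4 Bach2WT libraries (points) with their mean (line), in gene order along the mitochondrial chromosome. Lower panel: percent of 150-base windows of each transcript that occur in a nuclear transcript. The 3 adjacent genes at 99.4% to 99.8% have means from 3.26 to 16.5, and the other 7 have means from 71.4 to 390.

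The copies lie side by side on the minus strand of chromosome 1 (GRCm39). They are Gm29216 (24654787 to 24655278) for the end of mt-Co1, Gm28661 (24653966 to 24654646) for mt-Co2, Gm10925 (24653055 to 24653732) for mt-Atp6, Gm28437 (24652270 to 24653052) for mt-Co3, and Gm28438 and Gm10222 for mt-Nd3 and mt-Nd4l. Measured from mt-Co2 and its copy, the distances to the other copies were those between the mitochondrial genes for 4 of 5 pairs, counting mt-Co1 from the base where its copy begins, and differed by 1 base for mt-Nd4l. Gm28661 was identical to mt-Co2 at 681 of 681 bases, Gm10925 to mt-Atp6 at 678 of 678 and Gm28437 to mt-Co3 at 783 of 783. Gm29216 matched mt-Co1 in a run of 479 bases at its 3′ end (transcript positions 1067 to 1545). The stretch in which this match begins (positions 1058 to 1117 of mt-Co1 and 5 to 64 of Gm29216) and the end of mt-Co2 (positions 625 to 684, and 625 to 681 of Gm28661) show the identity, with the uninterrupted shared stretch in capitals.
mt-Co1: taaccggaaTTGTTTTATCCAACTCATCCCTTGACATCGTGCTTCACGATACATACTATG
Gm29216: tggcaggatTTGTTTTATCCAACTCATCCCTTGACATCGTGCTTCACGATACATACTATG
mt-Co2: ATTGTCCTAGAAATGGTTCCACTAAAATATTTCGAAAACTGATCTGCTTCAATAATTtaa
Gm28661: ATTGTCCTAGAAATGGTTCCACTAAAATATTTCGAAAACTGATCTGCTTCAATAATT

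Counts were listed for both members of each pair. Gm28661 held 43.5% of the counts of mt-Co2 and its copy together, Gm10925 64.4% for mt-Atp6, Gm28437 51.6% for mt-Co3 and Gm29216 0.656% for mt-Co1. How reads that match both places were treated is not given in the sources used here, so the values of mt-Co2, mt-Co3 and mt-Atp6, and in part those of mt-Nd4 and mt-Co1, are uncertain, as is their place in the order of levels, and whether reads were dropped or divided was not tested. Adding the copy to the member left the order of the low members as it was, with mt-Co2 at 19.2 to 22.9 CPM, mt-Atp6 at 7.23 to 9.73 CPM and mt-Co3 at 3.47 to 6.84 CPM in the Bach2WT libraries.

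The 3 protein-coding genes of MT outside the set were lower still. mt-Nd3, a complex I subunit, had 15 to 64 counts per library and mt-Nd4l, also of complex I, 13 to 54 counts, with 97.0% and 98.0% of their windows shared with Gm28438 and Gm10222. mt-Atp8, a small ATP synthase subunit that overlaps mt-Atp6 by 43 bases, had 0 to 3 counts and was not tested. None of its windows occurred in an annotated nuclear transcript, but the 230 bases between mt-Co2 and mt-Atp6, where most of it lies, face 233 bases between Gm28661 and Gm10925 that no listed gene covers.

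Between the genotypes, none of the 10 members passed the test. With all 8 libraries, the 10 log2 fold changes (Bach2KO minus Bach2WT) ran from 0.01 for mt-Nd2 to 0.41 for mt-Co3 with a median of 0.14, against a median of 0.05 over all genes tested. Their standard errors, 0.27 to 0.36, were larger than most of the changes, and adjusted p ran from 0.856 to 0.998 (edgeR quasi-likelihood test, Benjamini-Hochberg over all genes). Over all genes, 0.0078% passed the adjusted threshold, which is 1 gene, Rnase2a, named after its values were seen. At an unadjusted p under 0.05, 0 members and 7.46% of all genes passed. With DESeq2 again 0 members passed either threshold, against 58 of 12820 genes adjusted and 1076 unadjusted. Groups that did not overlap were seen for 0 members and 4.49% of all genes. Since these are bulk samples, fewer cells of a type and less RNA per cell cannot be told apart.

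**Figure D2:**
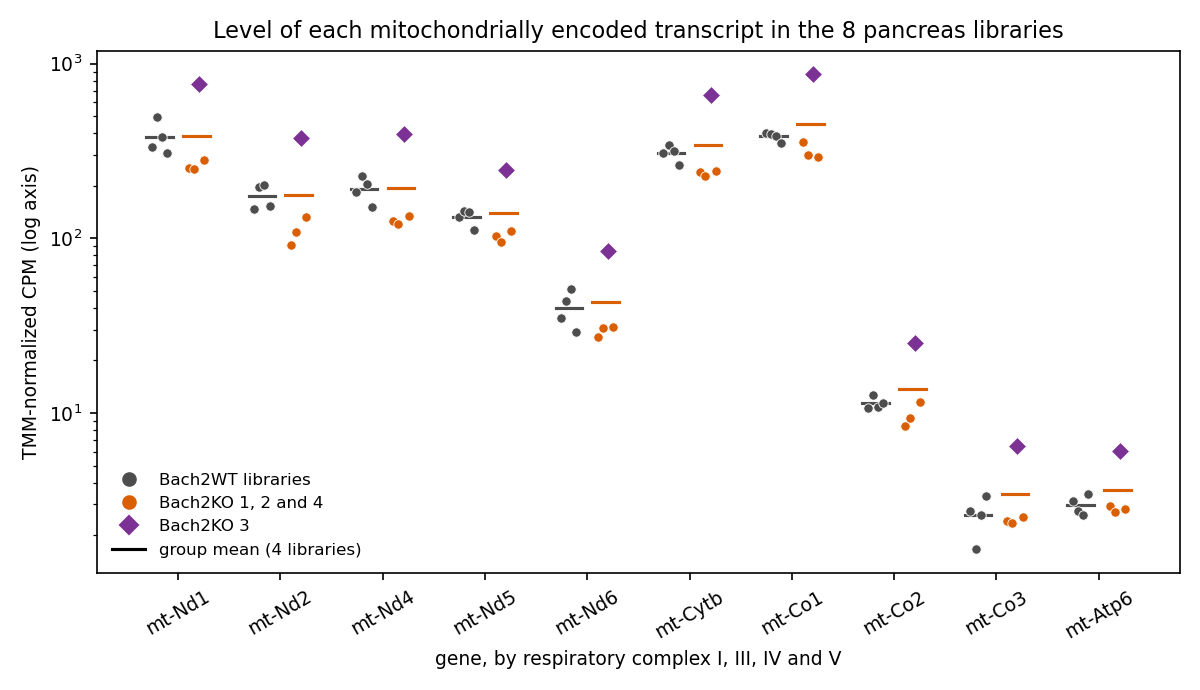
TMM-normalized CPM (log axis) of each member in the 8 libraries, ordered by respiratory complex, with lines at the group means of 4 libraries. Bach2KO 3 (diamond) is the highest library for each of the 10 transcripts, and for 5 of them the other 3 Bach2KO libraries lie below all Bach2WT libraries.

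Within the Bach2KO group the libraries split, as the plot of CPM by library shows. For each of the 10 members, Bach2KO 3 was the highest of all 8 libraries, at 1.87 to 2.51 times the Bach2WT mean, while the mean of the other 3 Bach2KO libraries was 0.632 to 0.949 times the Bach2WT mean. Bach2KO 3 was the highest library for 17.5% of all genes tested.

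Among complex I subunits, mt-Nd1 had 254, 249, 764 and 281 CPM in Bach2KO mice 1 to 4 and 335, 493, 381 and 306 CPM in Bach2WT mice 1 to 4. mt-Nd2, which with mt-Nd4 and mt-Nd5 belongs to the proton-pumping subunits of the membrane arm, had 92.2, 108, 376 and 132 CPM against 148, 197, 203 and 154 CPM. In both, the Bach2KO libraries lay on either side of the Bach2WT range, 3 below it and 1 above it.

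mt-Nd4 had 125, 120, 397 and 135 CPM in the Bach2KO and 184, 228, 204 and 152 CPM in the Bach2WT libraries. mt-Nd5 had 104, 95.2, 247 and 111 CPM against 132, 144, 141 and 112 CPM, so that Bach2KO 4 and Bach2WT 4 nearly met. mt-Nd6, a further membrane subunit, had 27.4, 30.6, 84.3 and 31.3 CPM against 35.0, 44.1, 51.3 and 29.2 CPM, and here the low Bach2KO libraries overlapped Bach2WT 4.

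mt-Cytb codes for cytochrome b, the haem-carrying core of complex III. It had 241, 229, 660 and 244 CPM in the Bach2KO and 309, 343, 318 and 263 CPM in the Bach2WT libraries, the same arrangement as in mt-Nd1.

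In complex IV, mt-Co1, the subunit where oxygen is reduced, had 356, 299, 867 and 293 CPM in the Bach2KO libraries. Its Bach2WT values, 400, 396, 385 and 352 CPM, were the least spread of all members in FPKM (5.20% of the mean). mt-Co2, which takes electrons from cytochrome c, had 8.41, 9.36, 25.3 and 11.6 CPM against 10.7, 12.7, 10.8 and 11.5 CPM. For both, Bach2KO 1 or Bach2KO 4 reached into the Bach2WT range.

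mt-Co3, a core subunit without a redox centre, had 2.40, 2.35, 6.51 and 2.55 CPM in the Bach2KO and 2.74, 1.67, 2.62 and 3.34 CPM in the Bach2WT libraries. mt-Atp6, the ATP synthase subunit of the proton path, had 2.94, 2.73, 6.04 and 2.83 CPM against 3.14, 2.75, 2.61 and 3.44 CPM. For these 2 members the Bach2KO libraries other than Bach2KO 3 lay inside the Bach2WT range.

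Without Bach2KO 3, the log2 fold changes of all 10 members were negative, from −0.68 (mt-Nd2) to −0.09 (mt-Atp6), with a median of −0.39 against 0.04 over the 13701 genes then tested. No member passed the adjusted test (lowest adjusted p = 0.367 for mt-Nd2 and mt-Nd4, edgeR), and neither did any other gene (0%). At an unadjusted p under 0.05, 6 of 10 members (mt-Nd1, mt-Nd2, mt-Nd4, mt-Nd5, mt-Nd6 and mt-Cytb) and 8.06% of all genes passed, all 6 members in the direction of lower values in Bach2KO. The members share precursors and libraries and are not independent of each other. Bach2KO 3 was set aside because of its high values for these same members, so lower values without it follow in part from that choice. The count of members therefore cannot be held against the share of all genes.

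**Figure D3:**
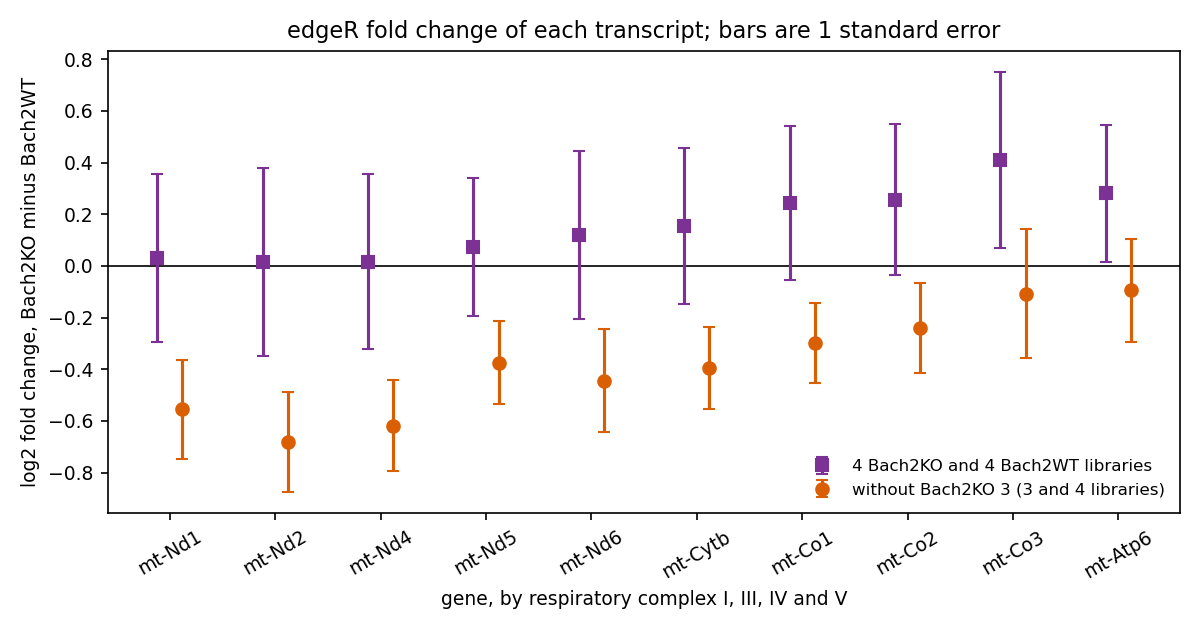
log2 fold change of each member between Bach2KO and Bach2WT (edgeR), with all 8 libraries (squares) and without Bach2KO 3 (circles); bars are 1 standard error. The squares lie between 0.01 and 0.41 and the circles between −0.68 and −0.09.

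The plot of fold changes with and without Bach2KO 3 shows that the estimates of mt-Nd1, mt-Nd2 and mt-Nd4 moved most. For mt-Nd2 the value went from 0.01 ± 0.36 (SE) to −0.68 ± 0.19, for mt-Nd4 from 0.02 ± 0.34 to −0.62 ± 0.18 and for mt-Nd1 from 0.03 ± 0.33 to −0.56 ± 0.19. mt-Co3 at −0.11 ± 0.25 and mt-Atp6 at −0.09 ± 0.20 were then closest to 0. The remaining Bach2KO values did not overlap the Bach2WT values for 6 of 10 members, against 8.98% of all genes, with TMM factors computed on the 7 libraries. With the factors of all 8 libraries it was 5, since mt-Co1 then overlapped (356 CPM in Bach2KO 1 and 352 CPM in Bach2WT 4). Both counts rest on leaving out a library for its values in these members, so they cannot be held against the share of all genes either.

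Summed over the 10 members, 0.143%, 0.123%, 0.359% and 0.144% of all counts fell on them in Bach2KO mice 1 to 4, and 0.172%, 0.160%, 0.142% and 0.115% in Bach2WT mice 1 to 4. The means were 0.192% ± 0.112 (SD, n = 4) and 0.147% ± 0.0250 (SD, n = 4), and 0.137% ± 0.0119 in the 3 Bach2KO libraries other than Bach2KO 3. The latter range lies inside that of the Bach2WT libraries. On this scale, which is relative to all counts including those of the enzymes, the shift of the 3 libraries seen in TMM-scaled CPM was thus within the spread of the Bach2WT mice.

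The share of each member in the members' counts varied between libraries. mt-Co1 made up 21.3% to 29.3% of the members' counts, mt-Nd1 21.0% to 26.5% and mt-Nd4 10.3% to 12.2%. In Bach2KO 3 these 3 shares were 25.3%, 22.3% and 11.6%, all inside the range of the other libraries. The share of mt-Nd5, 7.19%, was the lowest of the 8 there (7.73% to 8.90% elsewhere). Wider relative ranges were those of mt-Nd2 (7.60% to 11.9%), mt-Atp6 (0.148% to 0.248%) and mt-Co3 (0.0896% to 0.241%). Over the 45 pairs of members, the correlation of log2 CPM across the 8 libraries had a median of 0.915 (Pearson's r, lowest 0.558), and without Bach2KO 3 a median of 0.650 (lowest −0.573), values that share library and scaling.

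In the comparison of females with males, all 10 members had lower values in females, with log2 differences from −0.70 (mt-Nd2) to −0.34 (mt-Atp6). No member passed the adjusted test (0.0312% of all genes did, edgeR), and 1 member, mt-Co3 at −0.68 ± 0.30, passed at an unadjusted p under 0.05, against 5.29% of all genes. With DESeq2, 0 members and 12 of 12820 genes passed after adjustment, and 1 member and 818 genes passed unadjusted. Bach2KO 3 is a male. Without it, 4 members had positive and 6 negative differences, with a median of −0.02.

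The difference between the genotypes was compared between the sexes with an interaction term. Among females, the mean log2 difference Bach2KO minus Bach2WT was negative for 9 members, down to −0.77 for mt-Nd2, and 0.15 for mt-Co3, and among males it was 0.34 to 0.62 for all 10. The interaction ranged from −1.32 to −0.49 and did not pass the adjusted test for any member (0% of all genes passed, lowest adjusted p of a member 0.807, edgeR). At an unadjusted p under 0.05, 4 members (mt-Nd1, mt-Nd2, mt-Nd4 and mt-Co2) and 6.14% of all genes passed. DESeq2 passed 0 members and 15 of 12820 genes after adjustment, and 6 members and 905 genes unadjusted. Leaving out 1 mouse left 1 library in a group of sex and genotype, so only effect sizes are given for those fits. The members' median interaction was −1.04 with all libraries, −0.25 without Bach2KO 3 and −1.55 without Bach2KO 4. With any other mouse left out it was −1.20 to −0.92. Without Bach2KO 3, the male difference rested on Bach2KO 4 alone and was −0.42 to 0.06.

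In Bach2KO 3, the summed nuclear partner subunits lay below the Bach2WT mean, while the members lay above it. Relative to the Bach2WT mean, the summed CPM of the members in Bach2KO 3 was 2.03 for complex I, 2.14 for complex III, 2.26 for complex IV and 2.02 for complex V. The summed CPM of the nuclear subunits of the same complexes was 0.894, 0.916, 0.931 and 0.843 in that library. Among the Bach2KO libraries these sums were the highest for complexes I, III and IV, while for complex V Bach2KO 4 was the highest (0.902). In the other 3 Bach2KO libraries, members and nuclear subunits were at 0.688 ± 0.0547 (SD, n = 3) and 0.756 ± 0.0502 for complex I, and at 0.771 ± 0.0253 and 0.761 ± 0.0493 for complex III. The values were 0.827 ± 0.0840 and 0.766 ± 0.0552 for complex IV, and 0.949 ± 0.0354 and 0.824 ± 0.0708 for complex V. The SD of the Bach2WT libraries on this scale was 0.0536 to 0.170 for members and 0.143 to 0.154 for nuclear subunits. These 3 Bach2KO libraries overlapped Bach2WT for the member of complex V and for the nuclear subunits of complexes III, IV and V. They did not overlap for the members of complexes I, III and IV or the nuclear subunits of complex I.

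**Figure D4:**
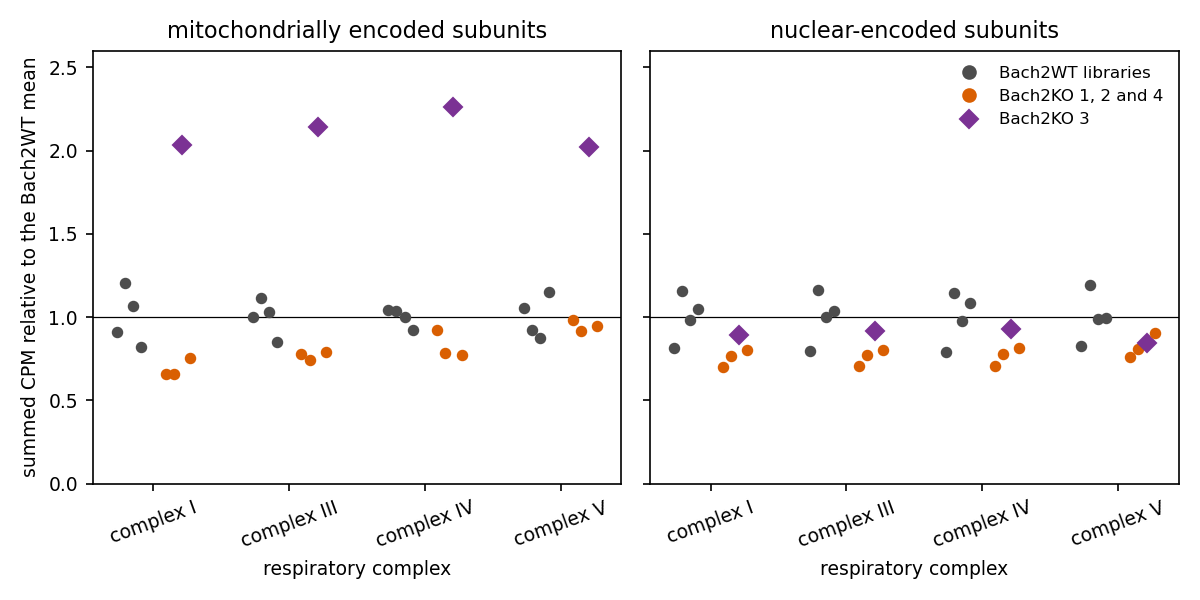
Summed TMM-normalized CPM of the mitochondrially encoded members (left) and of the nuclear subunits (right) of 4 respiratory complexes, each relative to the mean of the 4 Bach2WT libraries, by library. Bach2KO 3 (diamond) lies at 2.02 to 2.26 on the left and at 0.843 to 0.931 on the right.

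Of 77 nuclear subunits tested, 0 passed the adjusted test for genotype with edgeR and 1, Ndufa3, with DESeq2 (adjusted p = 0.0299). At an unadjusted p under 0.05, 25 were lower and 1 was higher in Bach2KO, against the 7.46% of all genes in either direction. With DESeq2, 28 were lower and 1 was higher at that threshold, against 556 lower and 520 higher of 12820 genes. Without Bach2KO 3, 34 were lower and 0 higher, against 633 lower and 471 higher of 13701 genes. Without Bach2WT 2, 8 were lower, against 273 of 12785 genes. The direction of these counts depended on the scaling, since with total counts and no TMM factor 1 was lower and 7 were higher (median log2 fold change 0.0097, against −0.30 with TMM). Over all 12820 genes, 47 were lower and 1592 higher with that scaling. Examples are Ndufa3, an accessory subunit of complex I (log2 fold change −0.80 ± 0.19, adjusted p = 0.352), and Uqcrc1, a core subunit of complex III (−0.44 ± 0.14, adjusted p = 0.531). The 1 higher gene was Cox7b of complex IV (0.41 ± 0.16, adjusted p = 0.627). Bach2KO 3 was the highest library for 5 and the lowest for 9 of the 77.

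Among nuclear genes that serve mitochondrial RNA, none passed the adjusted test with edgeR or DESeq2. Of 17 tested genes of mitochondrial DNA transcription and replication, 0 passed at an unadjusted p under 0.05 (median log2 fold change 0.17), and Polrmt, the mitochondrial RNA polymerase, stood at 0.26 ± 0.22 (0.35 ± 0.21 without Bach2KO 3). Of 23 genes of mitochondrial RNA processing and stability, 0 passed (median −0.08). Among 17 translation factors, 1 was lower, Tufm, the mitochondrial elongation factor Tu (−0.42 ± 0.17, adjusted p = 0.642), and among 16 genes of the outer membrane and import, 1 was lower, Phb, prohibitin (−0.54 ± 0.21, adjusted p = 0.627). Over all genes, 7.46% passed that unadjusted threshold in either direction. Of 9 regulators of mitochondrial biogenesis and 15 stress response genes, 0 passed at an unadjusted p under 0.05 with edgeR, and with DESeq2 0 and 1. Without Bach2KO 3, Tufm was at −0.43 (adjusted p = 0.613) and Phb at −0.51 (adjusted p = 0.619). With total counts and no TMM factor, 0 genes of the lists holding Tufm and Phb were lower at an unadjusted p under 0.05, and 1 translation factor and 3 genes of the outer membrane and import were higher. So were 2 genes of transcription and replication, 1 regulator of biogenesis and 4 stress response genes. Over all 12820 genes, 47 were lower and 1592 higher with that scaling.

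The 2 mitochondrial ribosomal RNAs were compared with the members as products of the same chromosome that are not translated. mt-Rnr1 had a log2 fold change of −0.42 ± 0.25 (adjusted p = 0.767, edgeR) and mt-Rnr2 of −0.17 ± 0.28 (adjusted p = 0.940). Without Bach2KO 3 they were −0.73 (adjusted p = 0.375) and −0.61 (adjusted p = 0.412). The members' counts were 29.5, 43.9, 50.6 and 45.1 times those of both ribosomal RNAs in Bach2KO mice 1 to 4 and 31.2, 37.8, 30.5 and 33.0 times in Bach2WT mice 1 to 4. Bach2KO 1 was the lowest and the other 3 Bach2KO libraries were the highest of the 8. Because the libraries were enriched for poly(A) RNA, these ratios describe what was sequenced and not the amounts in the cells.

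Markers of some other cells were also high in Bach2KO 3. The summed CPM of 7 endothelial markers was 68.3 there and 23.1 to 37.4 in the other 7 libraries, and 6 of the 7 were highest in that library. Islet markers (8 genes) summed to 2025 CPM in Bach2KO 3, to 2319 CPM in Bach2WT 4 and to 184 to 646 CPM elsewhere. Macrophage markers (8 genes) summed to 37.2 CPM in Bach2KO 3 and 16.5 to 30.8 CPM elsewhere, with 4 highest there. The 10 nuclear-retained and early-response RNAs summed to 80.4 CPM against 14.1 to 71.4 CPM, with 3 of 8 tested highest there. In log2 CPM, the 8 lay 0.24 (Neat1, the most abundant) to 5.20 (Egr1) above the Bach2WT mean in Bach2KO 3, with a median of 1.16. Eosinophil markers, of which 1 (Ear2) was tested, were near the floor and summed to 0.885 CPM in Bach2KO 3 and 0 to 0.402 CPM elsewhere. Sums of acinar, duct, T cell, B and plasma cell, neutrophil, fibroblast, white adipocyte and red blood cell markers were not highest in Bach2KO 3. Fibroblast markers were at 61.5 CPM there and at 69.2 CPM in Bach2WT 1, and red blood cell markers at 209 CPM there and at 259 CPM in Bach2WT 4. Markers of brown adipocytes and of muscle summed to at most 0.297 and 0.288 CPM in any library and to 0.0132 and 0.0264 CPM in Bach2KO 3. Whether the cells or RNAs behind any of these markers had a part in the members' values was not tested.

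Of 1174 nuclear genes with a mean of at least 10 CPM, Ctbp1, a transcriptional corepressor, followed the members' mean log2 CPM most closely over the 8 libraries (Pearson's r = 0.911). It was followed by Magt1 (0.866), Rpl21 (0.851), Col4a1 (0.847) and Pabpc4 (0.846). Without Bach2KO 3 the value of Ctbp1 was 0.949, but that of Magt1 was −0.339, of Rpl21 0.342, of Col4a1 0.586 and of Pabpc4 0.0575. The closest genes over those 7 libraries were Mettl26 (0.979), Chmp2a (0.973), Lman1 (0.970), Cracdl (0.968) and Suds3 (0.955). These correlations are descriptions picked as the highest of many, over points that share scaling.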

How the data were processed

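Total RNA from homogenized pancreas was enriched for poly(A) RNA and sequenced as paired-end reads in 8 libraries. The authors deposited 1 table with raw counts per gene and library, size-factor-normalized values, and FPKM values, which equal the deposited count per kilobase times 1 factor per library. The submitters' processing notes name fastp, HISAT2 2.2.1, featureCounts 2.0.6 and the build mm39. Strand setting, handling of reads that match several places and the annotation version are not given in the sources used here. The normalized columns and the columns of the authors' own genotype comparison (fold changes and their p-values) were not used.

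Counts were tested with edgeR 4.0.16 (TMM, filterByExpr on genotype, quasi-likelihood test, R 4.3.3) over all 12820 genes passing the filter, with Benjamini-Hochberg adjustment and a threshold of 0.05. The genotype model had no covariate, sex was tested with genotype in the model, and the interaction was tested with both. Standard errors are the fold change divided by the square root of F. Log2 CPM used a prior count of 2. The procedure was tested on simulated counts. The mice are separate animals, with 1 library each, and batches are not given in the labels. Depth was 72299745 to 172029360 counts.

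The members and gene lists were chosen with earlier results of these data known. Named genes were the members, other protein-coding and ribosomal RNA genes of MT, listed nuclear copies, the 5 genes most correlated with the members (at least 10 CPM on average), and up to 2 genes per nuclear list with the smallest p. Alternatives were RLE factors, total counts, libraries without digestive enzymes or MT, no filter, at least 10 counts in every mouse, DESeq2 1.42.0, sex as a covariate, a replicate block and leaving out each mouse. Summing members and copies was added after seeing the data, as was the window comparison of transcripts (150 bases).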

Additional observations from a re-analysis of the deposited data

Results flagged for a closer look

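In groups of 4 libraries, the distance of the highest or lowest library to its nearest neighbour was divided by the range of the group and held against Dixon's critical value. Chance alone passes about 1 in 20 groups that are independent and normally distributed. The groups here share libraries and hold transcripts that vary together, so their count cannot be held against that rate. Of 46 groups examined, 15 passed, 9 of them among the 20 groups of the members.

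Bach2KO 3 was the library that stood off for 9 members, with 764 CPM for mt-Nd1, 376 for mt-Nd2, 397 for mt-Nd4, 247 for mt-Nd5, 84.3 for mt-Nd6, 867 for mt-Co1, 6.51 for mt-Co3, 660 for mt-Cytb and 6.04 for mt-Atp6. For mt-Co2 it was also the highest, but the distance stayed under the limit. The summed share of the members, 0.359% of counts in Bach2KO 3, passed as well.

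Among the nuclear copies, Bach2KO 3 stood off for Gm10925 (13.4 CPM), Gm28661 (19.8 CPM) and Gm29216 (6.05 CPM), the copies of mt-Atp6, mt-Co2 and mt-Co1. In the Bach2WT group, Gm28438 was high in Bach2WT 4 (1.58 CPM) and Gm29216 low in Bach2WT 2 (1.87 CPM).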

How the results depend on the processing

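No alternative gave a member that passed the adjusted genotype or interaction test. Without a filter on low counts, 1 member passed for sex (mt-Nd2, log2 difference −0.68, adjusted p = 0.0261, edgeR). The genotype direction of the members was not stable. Leaving out 1 mouse at a time moved their median from −0.39 (without Bach2KO 3) to 0.29, and the ranges were −0.56 to 0.19 for mt-Nd1, −0.68 to 0.23 for mt-Nd2, −0.62 to 0.19 for mt-Nd4, −0.38 to 0.22 for mt-Nd5, −0.44 to 0.29 for mt-Nd6, −0.39 to 0.31 for mt-Cytb, −0.30 to 0.41 for mt-Co1, −0.24 to 0.43 for mt-Co2, −0.11 to 0.55 for mt-Co3 and −0.0939 to 0.39 for mt-Atp6. Each lowest value is the one without Bach2KO 3, as for Gm10222 (−0.25 to 0.38), Gm10925 (−0.12 to 0.58), Gm28661 (−0.47 to 0.28), Gm29216 (−0.0853 to 0.59), mt-Nd4l (−0.38 to 0.43), mt-Rnr2 (−0.61 to 0.0099) and mt-Tp, a transfer RNA (−0.58 to 0.069), and the correlation of Magt1 with the members was then −0.339.

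With total counts and no TMM factor, the median of all genes shifted to 0.35, calls at an unadjusted p were 1592 higher and 47 lower (500 and 457 with TMM), and the members' median was 0.41. mt-Rnr2 (0.11), mt-Tp (0.20) and Sdha, of complex II, (0.00093) then turned positive. mt-Nd2 was −0.00095 with RLE factors and −0.00076 with DESeq2. With sex as a covariate, mt-Nd1 (−0.057), mt-Nd2 (−0.14) and mt-Nd4 (−0.084) were negative.

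The labels do not say that replicate numbers pair the mice. The deviations of equally numbered libraries from their group means correlated at 0.212, −0.0344, −0.0409 and −0.0543 over genes. These values alone do not settle whether equally numbered mice shared a batch. With the replicate block, 0 genes passed, the members' median was −0.01, and mt-Nd1 (−0.13), mt-Nd2 (−0.23), mt-Nd4 (−0.18), mt-Nd5 (−0.041), mt-Nd6 (−0.018), mt-Cytb (−0.0091) and Gm28661 (−0.083) were negative.

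Over all genes, genotype calls (1 as designed) were 73 without a filter, 58 with DESeq2, and 0 with at least 10 counts in every mouse, with sex as a covariate and without any 1 mouse. Sex calls (4) were 152 without a filter, 12 with DESeq2, 1 with the stricter filter and 2 to 9 without 1 mouse. Interaction calls (0) were 92 without a filter, 15 with DESeq2 and 0 to 6 without 1 mouse. Ndufa3 passed with DESeq2 (log2 fold change −0.83, adjusted p = 0.0299; 0.0299 to 0.725 over its alternatives). The cause of these moves was not tested. Summing members and copies, an alternative chosen after seeing the data, left mt-Co2 at 0.19, mt-Co3 at 0.39, mt-Atp6 at 0.37 and mt-Co1 at 0.25. mt-Co3 (195 to 493 counts per library) and mt-Atp6 (226 to 546) had the fewest counts of the members.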

Other observations

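Bach2KO 3 was the highest of the 8 libraries for 5 of the 6 listed copies, as it was for the members, and not for Gm28438. Gm28439, the copy that shares most of mt-Nd4, had 3.92 CPM in Bach2KO 3 and 1.54 to 2.74 CPM in the other libraries. Identical sequences cannot be told apart by counts, so these values do not show whether the copies themselves are transcribed.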
